A study of Mus musculus with 6 samples.

Results

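Contacts of the Satb1 gene were compared between CD4+/CD8+ double-positive (DP) thymocytes and embryonic stem (ES) cells, which the study describes as expressing the gene and as keeping it silent. Each cell type had 1 4C library made with the same bait, at position 51962000 of chromosome 17 (mm9), out of 6 libraries in the series. All 229546 DpnII fragments that the deposited tables list for chromosome 17 were taken, and each was placed by its side of the bait and its distance from it. The DP cells were sorted by FACS for CD4 and CD8a from c57/Bl6 thymus at 4 weeks of age. The ES cells were the J1 line, of strain 129S4/SvJae, grown on irradiated feeders and then passaged without them. The labels give no genetic change or drug in either group and do not say how many animals were used. Both were fixed with 2% formaldehyde for 10 min and cut with DpnII and then Csp6I. The Methods describe a stronger SDS step for DP than for ES cells, while the sample labels describe 1 SDS step for both. Cell type, strain and preparation therefore cannot be told apart here, and with 1 library a group no difference was tested. A 4C profile holds no expression, so the labelled cell types could not be checked against marker genes.

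4C (circular chromosome conformation capture) counts how often 1 chosen fragment, the bait, was ligated to every other fragment after fixation, digestion and re-ligation of chromatin. Fragments that lie close in space are ligated more often, and counts fall with distance along the chromosome. SATB1 is a nuclear protein that binds AT-rich DNA, organizes chromatin loops and is needed for the development of T cells in the thymus. Active genes are often found in contact with their enhancers, and contacts are often held within domains whose edges lower contact across them.

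Satb1 lies on the minus strand at positions 51875512 to 51972615, so that its body extends to lower coordinates from the bait and its upstream region to higher coordinates. The study describes the bait as the promoter of Satb1. In the annotation its position fell in an intron, 10.6 kb inside the gene from the outermost annotated start and 86.5 kb from the 3′ end. The starts of single transcripts were not compared with it. The sequences below show the start of the bait fragment up to the first annotated exon in it and, for each library, the 2 fragments of at most 300 bp with most reads between 20 kb and 1.5 Mb. Added after the values were seen is the fragment of that length with most DP reads in each 100 kb bin in which DP exceeded ES at least 2-fold. They are plus strand sequence of the mm9 genome, and capitals mark the DpnII site (GATC) at which ligation takes place and the Csp6I site (GTAC) of the second digestion.
Bait fragment, first stretch, chr17:51961875-51962056: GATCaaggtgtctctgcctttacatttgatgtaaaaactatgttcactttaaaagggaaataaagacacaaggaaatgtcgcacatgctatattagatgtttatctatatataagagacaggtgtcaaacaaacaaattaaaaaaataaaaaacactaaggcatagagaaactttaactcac
DP fragment 1, chr17:51940146-51940334: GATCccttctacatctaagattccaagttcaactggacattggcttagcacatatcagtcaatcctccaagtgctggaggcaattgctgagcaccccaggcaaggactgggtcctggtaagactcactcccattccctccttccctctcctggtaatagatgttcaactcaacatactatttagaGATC
DP fragment 2, chr17:51902317-51902495: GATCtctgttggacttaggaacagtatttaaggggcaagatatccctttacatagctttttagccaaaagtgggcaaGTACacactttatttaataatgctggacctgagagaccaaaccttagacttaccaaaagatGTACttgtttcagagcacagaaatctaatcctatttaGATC
ES fragment 1, chr17:51912270-51912505: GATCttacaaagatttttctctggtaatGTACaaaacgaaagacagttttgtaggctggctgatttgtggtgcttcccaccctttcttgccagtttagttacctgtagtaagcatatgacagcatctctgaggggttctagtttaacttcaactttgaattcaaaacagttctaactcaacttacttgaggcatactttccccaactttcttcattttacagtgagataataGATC
ES fragment 2, chr17:51928128-51928198: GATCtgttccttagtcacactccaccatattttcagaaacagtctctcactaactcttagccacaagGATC
Upstream fragment 1, chr17:52319593-52319871: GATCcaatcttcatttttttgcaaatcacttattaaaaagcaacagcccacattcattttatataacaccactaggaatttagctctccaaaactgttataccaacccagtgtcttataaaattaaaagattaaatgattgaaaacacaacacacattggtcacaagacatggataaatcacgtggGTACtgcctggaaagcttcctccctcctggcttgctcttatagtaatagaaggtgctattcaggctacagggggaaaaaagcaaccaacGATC
Upstream fragment 2, chr17:52426042-52426194: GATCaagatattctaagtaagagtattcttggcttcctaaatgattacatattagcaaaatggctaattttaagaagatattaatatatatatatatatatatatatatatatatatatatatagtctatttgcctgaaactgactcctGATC
Upstream fragment 3, chr17:52591033-52591129: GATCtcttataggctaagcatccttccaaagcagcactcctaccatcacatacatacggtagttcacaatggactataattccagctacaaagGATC
Upstream fragment 4, chr17:52706769-52706915: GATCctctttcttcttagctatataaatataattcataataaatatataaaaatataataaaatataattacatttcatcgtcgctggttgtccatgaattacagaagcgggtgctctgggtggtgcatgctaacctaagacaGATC

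The DP and ES fragments, which ranked 1 and 5 in DP and 6 and 10 in ES among fragments of any length, all lay in introns of Satb1. DP fragment 1, 21.8 kb from the bait, held 6184 reads in DP and 3089 in ES. At DP fragment 2, 59.6 kb away and in the same direction, the counts were 4064 and 805. ES fragment 1, at 49.6 kb, held 1394 reads in DP and 3595 in ES, and ES fragment 2, at 33.8 kb, held 303 and 3293. Each was chosen by its count in 1 library, so that its lean to that library is no finding. The 4 upstream fragments lay in no annotated protein-coding gene, 358, 464, 629 and 745 kb from the bait. They held 3237, 3907, 3526 and 1450 reads in DP, against 1161, 0, 70 and 0 in ES. They were picked for many DP reads in bins where DP was the higher, so this contrast is built into the choice. A count of 0 at a fragment allows a share of up to 0.000162% of the ES reads. Of these 8 fragments a GTAC site lay in DP fragment 2, ES fragment 1 and upstream fragment 1. Counts of single fragments include PCR duplicates, which cannot be separated in these files, so sums over many fragments and shares of fragments with a read follow.

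The DP library held 1997083 reads on 5510 fragments (2.40% of all) and the ES library 1847598 reads on 9924 (4.32%). A fragment with a read had a median of 65 reads in DP and 47 in ES. The top fragment took 1.73% of DP and 0.947% of ES reads, and the top 10 took 9.64% and 5.01%. The DP library was thus the deeper of the pair but its reads were spread over fewer fragments. The only replicate pair of the series, ES libraries of another bait, differed likewise. Over 5 Mb from that bait, replicate 1 held 626810 reads on 2165 fragments and replicate 2 held 400524 on 3281. Of the listed fragments 82.9% had at least 1 end whose 26 bases, the length of the mapped read, occur 1 time among all DpnII ends of the genome. Those fragments carried 99.2% of DP and 98.8% of ES reads.

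The DP profile was concentrated around the gene and above all upstream of it, while a larger share of the ES profile lay beyond 1.5 Mb. Between 100 and 500 kb upstream lay 24.8% of DP reads (95% Clopper-Pearson interval 24.8 to 24.9%) and 12.5% of ES reads (12.5 to 12.6%), a DP to ES ratio of 1.99. At the same distance downstream the order was turned, with 5.35% of DP reads (5.32 to 5.38%) and 13.2% of ES reads (13.2 to 13.3%), a ratio of 0.405. Such intervals reflect how many reads were counted and say nothing of the number of ligation events. The only replicate pair of the series, 2 ES libraries from another bait at the Sox2 control region on chromosome 3, differed by 1.02-fold to 1.29-fold in the same 12 classes of side and distance. That pair gives a scale for the Satb1 ratios but was not made from this bait or from DP cells. Each of its libraries also held more reads than either Satb1 library.

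**Figure D1:**
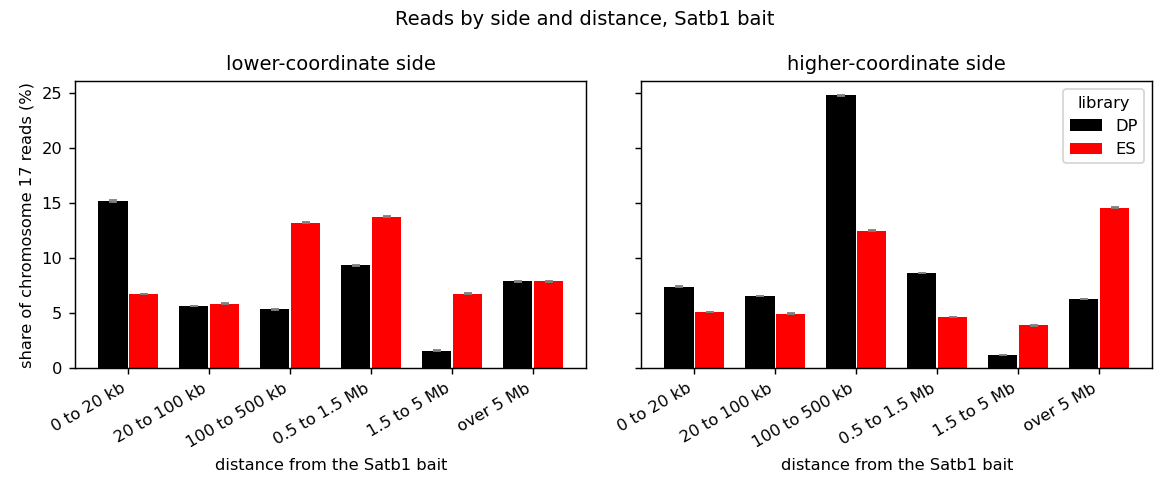
Share of chromosome 17 reads (%) by distance from the Satb1 bait, downstream (lower coordinates, left) and upstream (higher coordinates, right), in the DP (black) and ES (red) libraries. Bars are single libraries, and grey marks are 95% Clopper-Pearson intervals of counting. The 24.8% of DP reads at 100 to 500 kb upstream stand above every other bar.

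Next to the bait the DP library was also the higher one. Within 20 kb downstream lay 15.2% of DP and 6.76% of ES reads, a ratio of 2.25, and within 20 kb upstream 7.39% and 5.12%, a ratio of 1.45. From 20 to 100 kb downstream, a stretch mostly inside Satb1, the shares were 5.64% in DP and 5.87% in ES. This ratio of 0.962 lay inside the range of the replicate pair, and it was above 1 when counts were capped at the 99th percentile (1.13), when reads within 20 kb were left out of the total (1.10) and when the 10 top fragments of each library were left out (1.01). From 20 to 100 kb upstream the shares were 6.56% and 4.95%, a ratio of 1.33. At 0.5 to 1.5 Mb the sides differed again, with 8.66% of DP and 4.65% of ES reads upstream (ratio 1.86) and 9.37% and 13.8% downstream (ratio 0.681). Counted as shares of all fragments with a read, in place of reads, DP was the higher in each class from 20 kb to 1.5 Mb, since the ES list was longer by its distant fragments. On that scale the downstream ratio was 1.64 at 20 to 100 kb, 1.13 at 100 to 500 kb and 1.09 at 0.5 to 1.5 Mb.

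Beyond 1.5 Mb lay 16.99% of DP and 33.2% of ES reads, a difference of 16.2 percentage points. From 1.5 to 5 Mb DP held less than ES on both sides, with 1.60% against 6.79% downstream (ratio 0.236) and 1.18% against 3.89% upstream (ratio 0.304). Over 5 Mb away the downstream shares were nearly equal, at 7.91% and 7.90%. Upstream DP held 6.29% there against 14.6% in ES (ratio 0.431).

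The share of fragments with at least 1 read, which does not rise with further copies of 1 ligation product, gave the same contrast close to the gene. The 12 classes held 97 fragments within 20 kb, 361 at 20 to 100 kb, 1988 at 100 to 500 kb, 5101 at 0.5 to 1.5 Mb, 17896 at 1.5 to 5 Mb and 204103 over 5 Mb away. Within 20 kb nearly all had a read, 96.0% in each library downstream and 91.5% in DP and 93.6% in ES upstream. At 20 to 100 kb the downstream shares were 88.5% (exact interval over fragments 82.5 to 93.1%) in DP and 97.5% in ES, and the upstream shares 82.8% and 78.9%. Between 100 and 500 kb a read was found on 79.4% (76.8 to 81.8%) of the upstream fragments in DP and 69.3% (66.3 to 72.1%) in ES. Downstream, at the same distance, it was 50.5% (47.3 to 53.6%) in DP and 80.5% (77.9 to 82.9%) in ES.

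Farther out the ES library had reads on more fragments in each class on both sides. At 0.5 to 1.5 Mb the shares were 31.6% in DP and 52.4% in ES downstream, and 18.7% and 23.7% upstream. That upstream class was 1.86-fold higher in DP by reads, so fewer fragments there carried more reads. From 1.5 to 5 Mb the shares were 2.68% and 13.8% downstream and 1.97% and 7.03% upstream. Over 5 Mb away they were 1.07% and 1.36% downstream and 1.01% and 2.97% upstream. The Sox2 replicate pair differed by up to 1.71-fold in this measure, more than in reads. Of the Satb1 classes 3 lay outside that range, at DP to ES ratios of 0.195 (1.5 to 5 Mb downstream), 0.279 (1.5 to 5 Mb upstream) and 0.341 (over 5 Mb upstream). Set against the replicates at the same distance, the downstream ratio of 0.627 at 100 to 500 kb stood beside gaps of 1.28-fold and 1.21-fold, and the upstream ratio of 1.15 lay within them.

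**Figure D2:**
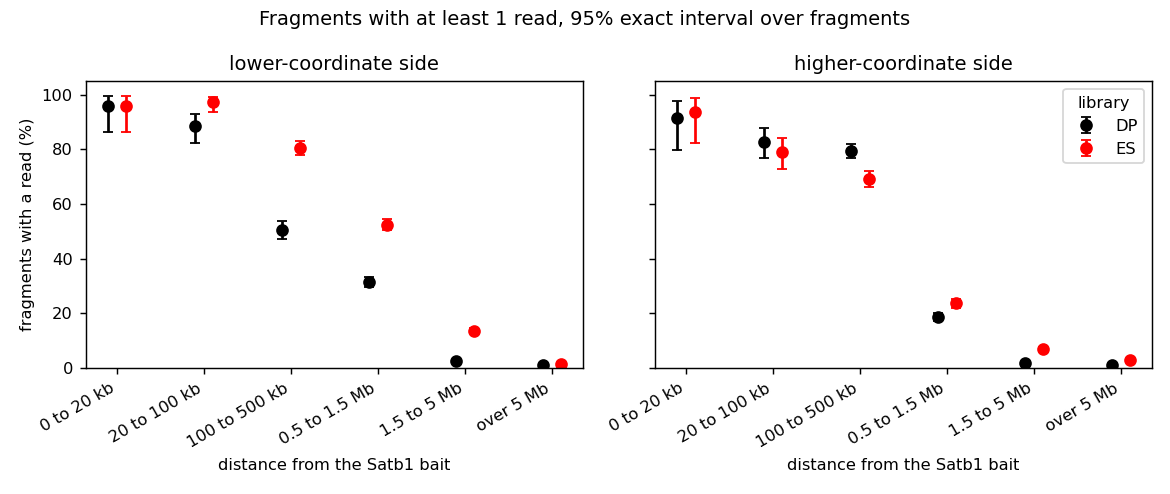
Share of DpnII fragments with at least 1 read (%) by distance from the Satb1 bait, downstream (lower coordinates, left) and upstream (higher coordinates, right), in DP (black) and ES (red). Bars are 95% exact intervals over fragments. At 100 to 500 kb DP lies above ES upstream, 79.4% against 69.3%, and below it downstream, 50.5% against 80.5%.

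The overlap of the fragments with a read fell with distance, as did their share of all fragments. From 20 to 100 kb, 293 fragments had a read in both libraries, 95.1% of the DP list and 93.3% of the ES list, where 87.0% of all fragments had a read in ES and 85.3% in DP. At 100 to 500 kb the shared fragments were 86.2% of the DP list and 75.1% of the ES list, beside 74.8% of all fragments with a read in ES and 65.1% in DP. At 0.5 to 1.5 Mb they were 64.7% and 42.9% of the lists, beside 37.4% and 24.9% of all fragments. From 1.5 to 5 Mb they were 23.7% of the DP list and 5.32% of the ES list, beside 10.3% and 2.31% of all fragments. Over 5 Mb away 92 fragments were shared, 4.31% of 2134 in DP and 2.15% of 4279 in ES, where 2.10% of all fragments had a read in ES and 1.05% in DP. The Sox2 replicates shared 4.94% and 3.26% of their lists over 5 Mb away, where fewer fragments had a read, 0.895% in replicate 2 and 0.590% in replicate 1. Distant contacts are therefore given below as sums over many fragments.

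Asymmetry was measured as upstream over downstream reads. In DP the upstream side exceeded the downstream side 4.64-fold at 100 to 500 kb (95% interval 4.61 to 4.67), and 4.50-fold per fragment. In ES the sides were nearly equal at that distance, with a ratio of 0.946 (0.940 to 0.951), or 0.918 per fragment. Restricted to fragments with a GTAC site the ES ratio was 1.02, so its direction depends on the fragments taken. The Sox2 bait gave 0.463 and 0.518 in its 2 replicates at this distance, which shows only how far apart that pair was in such a ratio. By fragments with a read the DP ratio of sides was 1.57 and the ES ratio 0.861.

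At the other distances the asymmetry of DP was smaller or ran the other way. Within 20 kb the upstream to downstream ratio of reads was 0.486 in DP and 0.758 in ES, at 20 to 100 kb 1.16 and 0.843. At 0.5 to 1.5 Mb it was 0.924 in DP and 0.338 in ES, so there it was the ES profile that leaned, to the downstream side. From 1.5 to 5 Mb both leaned downstream, with 0.738 and 0.573. Over 5 Mb away DP leaned downstream with 0.796 and ES upstream with 1.85. Over 20 kb to 1.5 Mb together the ratio was 1.97 in DP and 0.673 in ES. Of 15 mirrored pairs of 100 kb bins within 1.5 Mb, the upstream bin was the higher in 6 pairs in DP and in 2 in ES.

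A single slope of decay hid the difference between the libraries. Over 20 kb to 1.5 Mb the slope of log10 mean reads per fragment on log10 distance was -0.80 downstream and -0.79 upstream in DP, and -0.63 and -0.85 in ES. The Sox2 replicates had slopes of -1.53 and -1.55 on one side and -0.86 and -0.95 on the other. Over 20 to 500 kb, a range chosen after the values were seen, the DP slopes were -1.04 downstream and -0.05 upstream, and those of ES -0.59 and -0.48. The DP signal upstream was thus nearly level out to 500 kb. Of each side's reads within 1.5 Mb, 50% lay within 37.2 kb of the bait downstream and 258 kb upstream in DP, against 282 and 187 kb in ES. Over the whole of each side, 75% of reads lay within 1007 kb downstream and 598 kb upstream in DP. In ES the same share took 1656 kb and 12970 kb. For 90% of reads the order downstream was turned, with 21730 kb in DP and 10570 kb in ES, while upstream it took 12210 kb and 26980 kb.

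**Figure D3:**
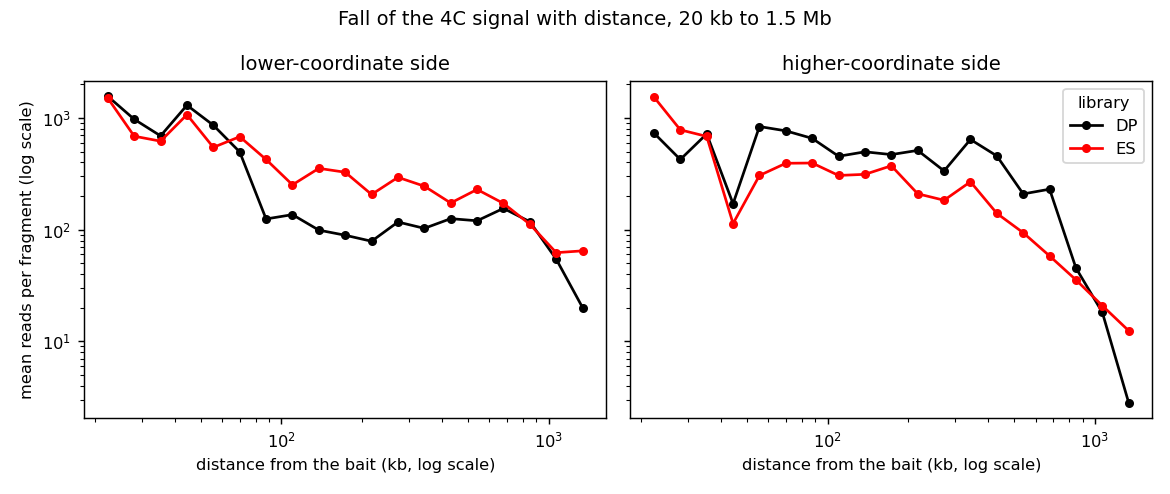
Mean reads per fragment (log scale) against distance from the Satb1 bait (kb, log scale) in 10 bins per 10-fold of distance, downstream (left) and upstream (right), 1 library per line. DP (black) falls early downstream and stays near level upstream to 500 kb, while ES (red) falls more evenly, with a dip near 45 kb upstream in both.

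The profiles were next compared in 100 kb bins. Of 100 bins within 5 Mb, 4 (4.0%) were at least 2-fold higher in DP by share of reads, and 71 (71.0%) at least 2-fold higher in ES. All 4 lay upstream, at 300 to 400 kb (7.79% of DP and 3.23% of ES reads, ratio 2.41), 400 to 500 kb (5.79% and 2.13%, ratio 2.72), 600 to 700 kb (3.47% and 1.01%, ratio 3.43) and 700 to 800 kb (1.61% and 0.414%, ratio 3.88). The bin between them, at 500 to 600 kb, had a ratio of 1.92. These bins hold no annotated protein-coding gene. Reads were found there on 87.4%, 77.0%, 53.2% and 44.7% of fragments in DP and on 77.3%, 61.3%, 45.3% and 27.2% in ES. Of the 15 downstream bins within 1.5 Mb none was 2-fold higher in DP and 8 were 2-fold higher in ES. Upstream the 15 bins were 4 and 4. From 1.5 to 5 Mb 29 of 35 downstream bins and 30 of 35 upstream bins were 2-fold higher in ES, with median ratios of 0.158 and 0.162.

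Upstream, mean reads per fragment in DP ran from 642 at 20 to 100 kb through 496, 393, 654 and 443 to 161, 273 and 130 at 700 to 800 kb. It was then 31.8 at 800 to 900 kb, 4.10-fold lower. In 50 kb bins this fall was graded. DP had 443 at 600 to 650 kb, then 132, 151 and 106 up to 800 kb, and 44.6 and 21.2 up to 900 kb. ES ran from 448 at 20 to 100 kb down to 31.1 at 700 to 800 kb and was 40.1 in the next bin, with no fall at 800 kb. Another fall lay at 1100 kb, between both annotated entries named Kcnh8, where DP fell 12.6-fold and ES 3.24-fold. At 1400 kb DP fell 74.4-fold per fragment, from 1430 reads in a bin to 17, while ES rose from 2810 to 4815. The share of fragments with a DP read hardly changed there, from 1.25% to 1.06%. This fall therefore rests on the read counts of few fragments, which include PCR duplicates.

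Downstream, mean reads per fragment in DP were 718 at 20 to 100 kb and 101 at 100 to 200 kb, 7.12-fold apart. In ES these bins had 691 and 305, 2.27-fold apart. The first bin averages a steep fall. With 10 bins per 10-fold of distance, DP had 497 at 69793 bp, 125 at 87599 bp and 136 at 109950 bp. Its fall thus came before 100 kb, close to the 3′ end of Satb1. ES had 681, 425 and 252 at these distances. From 100 to 1100 kb downstream DP was then level, between 101 and 148 reads per fragment in the 10 bins, while ES fell from 305 to 74.5. The DP to ES ratio in these bins accordingly went from 0.306 to 1.28. Between the bins on either side of 1100 kb DP fell 21.2-fold, from 103 to 4.86, and ES 2.36-fold, from 74.5 to 31.5. In 50 kb bins the fall began at 1050 kb. DP had 177 at 1000 to 1050 kb, 26.6 at 1050 to 1100 kb and 6.19 at 1100 to 1150 kb. ES had 116, 31.7 and 34.8 there, with no fall at 1100 kb itself. Both libraries rose again at 1200 to 1300 kb, to 22.4 and 70.6.

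**Figure D4:**
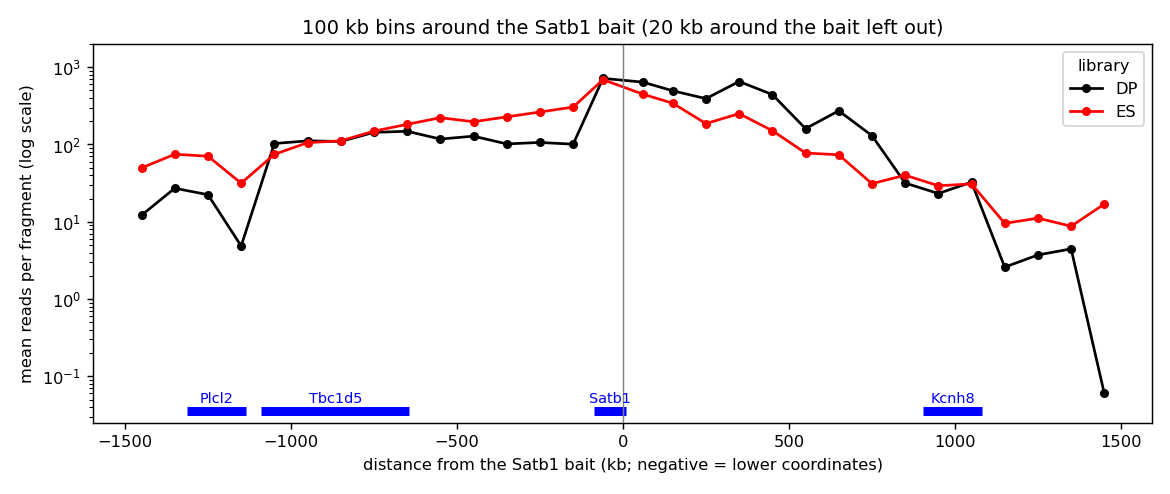
Mean reads per fragment (log scale) in 100 kb bins against distance from the Satb1 bait (kb, negative downstream, at lower coordinates) in DP (black) and ES (red), with 4 protein-coding genes as blue bars. In these bins DP is level from 100 to 1100 kb downstream and lower beyond, and upstream it exceeds ES to 800 kb. Farther upstream DP is below ES, except at 1000 to 1100 kb (32.5 against 30.9).

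Sums were also taken over intervals chosen after the values were seen, as descriptions only. In them 67.1% of DP reads and 37.9% of ES reads lay from 100 kb downstream to 800 kb upstream. The upstream part of it, from 100 to 800 kb, held 32.3% and 15.2%, a ratio of 2.13. From 100 to 600 kb downstream were 6.75% and 16.1%, a ratio of 0.420. From 600 to 1100 kb downstream the libraries were close, at 7.15% and 7.81%. Farther out ES was the higher, with 0.825% against 3.10% at 1100 to 1500 kb downstream and 1.16% against 1.96% at 800 to 1500 kb upstream.

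Few genes lie near Satb1, and none of them was 2-fold higher in DP. Over the body of Satb1 itself lay 26.7% of DP and 15.6% of ES reads, a ratio of 1.71, with a read on 94.6% and 96.6% of its 204 fragments. Much of this is the stretch beside the bait. Tbc1d5 encodes a protein of endosomal trafficking. It spans positions 50872452 to 51318674, from 643 kb to just short of 1100 kb downstream, and includes the fall at 1050 kb. It held 6.56% of DP and 6.49% of ES reads, a ratio of 1.01, on 44.2% and 57.2% of its 1033 fragments. Plcl2, which encodes a phospholipase C-like protein, lies farther out, with its near end 1134 kb from the bait. There the shares were 0.328% and 1.34%, a ratio of 0.244, with a read on 9.87% and 37.3% of fragments. Gm7334, a gene of 3 fragments between these genes, had 0 reads in DP and 283 reads on 1 fragment in ES.

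Upstream the nearest protein-coding gene was Kcnh8, which encodes a voltage-gated potassium channel, 903 kb from the bait at positions 52865084 to 53044561. It held 0.504% of DP and 0.613% of ES reads, a ratio of 0.823, on 8.74% and 24.4% of fragments. A second entry of that name, on the other strand at 53093281 to 53121602, had 0.0332% and 0.0395%. At 100 to 500 kb the annotation has no protein-coding gene on either side. Non-coding genes were not counted.

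From 1.5 to 5 Mb, 104 protein-coding genes were annotated, and 24 of them had at least 20 fragments with a read in both libraries together when taken with 25 kb on each side. None of the 24 was 2-fold higher in DP (0.0%) and 15 were 2-fold higher in ES (62.5%), with a median ratio of 0.397. Over all 104 genes the median was 0.323. In each of the 10 genes named next ES had more fragments with a read than DP, so that the limit of 20 favours genes with many ES contacts. Closest to equality, among genes whose windows did not overlap, were Efhb (ratio 0.738, with 0.373% of DP and 0.505% of ES reads), AI314976 (0.716), Foxp4, a forkhead transcription factor (0.704), Sgol1, which protects cohesin at centromeres (0.594), and Ccnd3, a D-type cyclin of the thymocyte cell cycle (0.514). Efhb, 1576 kb upstream, had reads on 43 fragments in DP and 68 in ES.

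At the low end was Lrfn2, a synaptic adhesion protein, with 228 reads on 6 fragments in DP and 7389 reads on 74 fragments in ES (ratio 0.0286). Kif6, a kinesin 1913 kb downstream, had 2103 reads on 11 fragments in DP and 21582 reads on 226 fragments in ES (0.0902). Pot1b, a telomere-binding protein, had a ratio of 0.111, Daam2, a formin, 0.122 and Trerf1, a zinc finger regulator, 0.127. Lrfn2, Kif6 and Daam2 have their near ends within 2725 kb downstream. Over these genes ES had reads on 14.6% to 24.9% of fragments and DP on 1.16% to 1.21%.

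Over 5 Mb away the libraries parted by side. Of 83 bins of 1 Mb, 12 (14.5%) were at least 2-fold higher in DP and 36 (43.4%) in ES. All 12 lay on the downstream side and more than 15 Mb from the bait, among 34 bins there. On the upstream side 0 of 39 bins were 2-fold higher in DP and 25 in ES, with a median ratio of 0.354. From 5 to 15 Mb downstream lay 2.10% of DP and 4.35% of ES reads (ratio 0.482), and beyond 15 Mb 5.81% and 3.55% (ratio 1.64). Upstream the corresponding shares were 1.26% and 4.35% (ratio 0.289) and 5.04% and 10.2% (ratio 0.492).

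Averaged over these 4 stretches the share of fragments with a read differed less in DP than in ES. In DP it was 1.15% at 5 to 15 Mb and 1.05% beyond 15 Mb downstream, and 0.871% and 1.06% upstream. In ES it was 2.80% and 0.918% downstream and 3.51% and 2.78% upstream. In single 1 Mb bins it ran from 0.116% to 3.57% in DP and from 0.184% to 5.30% in ES. Where DP exceeded ES by reads, beyond 15 Mb downstream, the 2 shares of fragments were 1.05% (exact interval 0.984 to 1.12%) and 0.918% (0.855 to 0.984%).

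**Figure D5:**
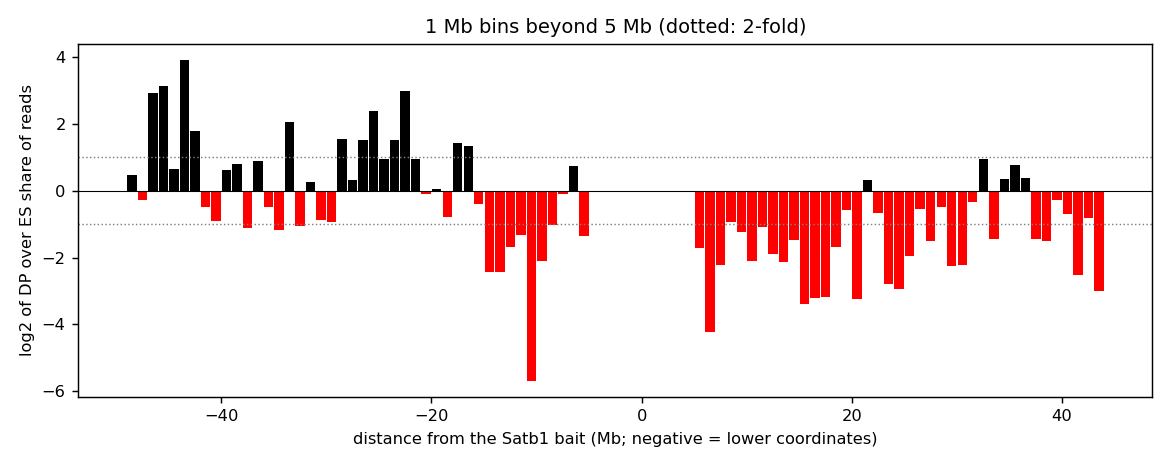
Log2 of the DP over ES share of reads in 1 Mb bins beyond 5 Mb, against distance from the Satb1 bait (Mb, negative downstream, at lower coordinates); black bars are higher in DP, red bars higher in ES, and dotted lines mark 2-fold. The 12 bins past 2-fold in DP all lie more than 15 Mb downstream, and 25 of 39 upstream bins are past 2-fold in ES.

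Of 981 protein-coding genes over 5 Mb away, 48 had at least 20 fragments with a read. Among them 6 (12.5%) were 2-fold higher in DP and 21 (43.8%) in ES, with a median ratio of 0.611. Over all 931 genes with a read in either library the median was 1.07, with 380 (40.8%) 2-fold higher in DP and 357 (38.3%) in ES. The limit of 20 is met more easily through the ES library, which had reads on more distant fragments, so the lean of the 48 genes to ES is no result. Highest in DP were Zdhhc14, a palmitoyltransferase, with 2639 reads on 16 fragments in DP and 346 reads on 4 fragments in ES (ratio 7.06), Pde10a, a phosphodiesterase, with 3199 reads on 30 fragments against 420 on 9 (7.05), and Arid1b, a subunit of the SWI/SNF chromatin remodelling complex, with 5227 reads on 25 fragments against 752 on 5 (6.43). These 3 genes lie at the far downstream end of the chromosome, 42.8 to 46.6 Mb from the bait. They met the limit of 20 mainly or wholly through DP and were picked by ratio, so their lean to DP is no finding. Zfand3, with a ratio of 3.09, had reads on 11 fragments in DP and 9 in ES. Thada, 32.6 Mb upstream, had a ratio of 2.56.

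Lowest was Arhgap28, with 14 reads on 2 fragments in DP and 2699 reads on 19 fragments in ES (ratio 0.0048). Rcan2, a regulator of calcineurin, followed with 85 reads on 2 fragments against 2448 on 29 (0.0321). Epb4.1l3, a protein of the membrane skeleton, had a ratio of 0.0490, Cntnap5c, of the contactin-associated family, 0.0655 and Fer, a tyrosine kinase, 0.0751. Apart from Rcan2, 7.79 Mb downstream, these genes lay upstream, at 5.95 to 17.5 Mb from the bait. These genes met the limit of 20 mainly or wholly through ES, and had reads on 2 to 6 fragments in DP.

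Genes of the T lineage and of pluripotent or early embryonic cells were counted as 2 lists, each gene taken with 25 kb on each side. Of 22 T lineage genes 21 were found by name, 16 of them on the downstream side, and 14 were 2-fold higher in DP and 3 in ES, with a median ratio of 7.61. Of 5 pluripotent or early embryo genes, 4 were 2-fold higher in DP and 1 in ES, with a median of 2.53. Both lists thus leaned to DP by reads. Over all genes more than 5 Mb away the counts were 380 and 357, with a median of 1.07. By fragments the T lineage windows showed the opposite order, with a read on 84 of 3622 distinct fragments in DP and 122 in ES. Only 2 of these genes had at least 20 fragments with a read, and windows of neighbouring genes shared fragments and reads. The pluripotent list had 25 and 19 such fragments of 906.

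In the T lineage list the top genes were Pim1, a kinase, and Ccr6, a chemokine receptor. Pim1 had 401 reads on 5 fragments in DP and 0 reads in ES. With its ES count set to a floor of 3 reads its ratio was 124. Ccr6 had 1188 reads on 6 fragments in DP and 12 reads on 1 in ES (ratio 91.6). At the bottom were Tnfsf14, a TNF family ligand, with 0 reads in DP and 980 reads on 6 fragments in ES, and Vav1, a signalling protein of the T cell receptor pathway, with 5 reads on 1 fragment and 2376 reads on 12 (ratio 0.00195). In the other list T, the brachyury gene, had 1134 reads on 3 fragments in DP and 0 in ES. With its ES count set to the same floor of 3 reads its ratio was 350. Pou5f1, which encodes OCT4, had 479 reads on 2 fragments and 48 on 3 (ratio 9.23). The lowest were Zfp57, with 122 reads on 1 fragment and 305 on 5 (ratio 0.370), and Epcam, with 777 reads on 6 and 335 on 5 (ratio 2.15). Each of these values rests on 12 or fewer fragments per library, and whether they would recur in a further library was not tested.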

How the data were processed

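Chromosome conformation capture (4C) was measured in 2 Satb1 libraries, with 2 ES libraries of the Sox2 control region bait as the only replicate pair. The other 2 libraries were not used here. To make the counts the authors trimmed bait sequence allowing 2 mismatches, mapped the remaining 26 nt against mm9 using Bowtie (the submitters' processing notes give version 1.0.0) and deposited, for each DpnII fragment on the chromosome of the bait, a raw read count. Their counting script is described as dropping any fragment that takes over 2% of a library. The counts are not normalized, and PCR duplicates cannot be told from other reads.

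Every listed midpoint matched a fragment of the mm9 sequence, and the bait fragment is not listed. Genes are those of GENCODE vM1. Read shares, side ratios, decay slopes and bin ratios were computed in Python 3.11.15 with numpy 2.4.6, pandas 2.3.3 and scipy 1.17.1 (exact binomial intervals, 95%). Decay slopes, bin calls and read shares by distance were tested on simulated data. Side ratios were not. A bin needed at least 100 reads in both libraries together. With 1 library a group there was no test.

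The members, classes and gene lists were chosen with earlier results of these data known. Named genes were Satb1, protein-coding genes within 1.5 Mb, the highest and lowest 5 by ratio at 1.5 to 5 Mb and beyond 5 Mb, and the highest and lowest 2 of each list. Alternatives covered capping, counting each fragment 1 time, GTAC fragments, unique ends, the denominator, top fragments, quantile normalization, read minimum, thinning, bin size and fold.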

Additional observations from a re-analysis of the deposited data

How the results depend on the processing

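No paired analysis was possible because each cell type had 1 library and no comparison was tested. The excess of ES over DP reads beyond 1.5 Mb, 16.2 percentage points, was 16.5 with capped counts, 15.4 with each fragment counted 1 time, 15.6 on GTAC fragments and 15.7 without the 20 kb around the bait. The DP side ratio at 100 to 500 kb (4.64) was 4.61 capped, 1.62 with fragments counted 1 time, 5.08 on GTAC fragments and 4.27 after quantile normalization, and that of ES (0.946) was 0.887 with fragments counted 1 time, 0.953 on unique ends, 0.952 after quantile normalization and, turned in direction, 1.02 on GTAC fragments.

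The share of fragments with a read from 20 kb to 1.5 Mb (38.5% in DP, 49.8% in ES) was 33.1% and 41.7% at a minimum of 10 reads, 41.5% and 54.0% on GTAC fragments and 45.3% and 58.3% on unique ends, and in ES 48.1% at a minimum of 2 reads. It was higher in ES under each of these.

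The decay slope downstream in DP (-0.80) was -0.78 per kb of chromosome, -0.78 capped, -0.34 by fragments with a read, -0.81 on GTAC fragments, -0.77 on unique ends and -1.04 over 20 to 500 kb. Upstream in DP (-0.79) it was -0.75 per kb, -0.54 by fragments with a read, -0.62 with 20 bins per 10-fold, -0.76 on GTAC fragments, -0.78 on unique ends and -0.05 over 20 to 500 kb. Downstream in ES (-0.63) it was -0.61 per kb, -0.58 capped, -0.17 by fragments with a read, -0.61 with 20 bins, -0.65 on GTAC fragments, -0.61 on unique ends and -0.59 over 20 to 500 kb. Upstream in ES (-0.85) it was -0.80 per kb, -0.79 capped, -0.33 by fragments with a read, -0.71 with 20 bins, -0.87 on GTAC fragments, -0.84 on unique ends and -0.48 over 20 to 500 kb.

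Bins at least 2-fold higher in DP and ES numbered 16 and 136 of 199 at 50 kb and 3 and 36 of 50 at 200 kb, and at 3-fold 2 and 54 of 100. Of the 16, those within 1.5 Mb all lay 200 to 800 kb upstream. The rest lay at 1.5 to 5 Mb, where no 100 kb bin was 2-fold higher in DP. The unique-end, 20 to 500 kb and 20 kb to 1.5 Mb denominator settings were chosen after seeing the data.

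Of 114 further values 7 turned direction. Downstream at 20 to 100 kb the DP to ES ratio (0.962) was 1.13 capped, 1.64 with fragments counted 1 time, 1.10 without the 20 kb around the bait in the total and 1.01 without the top 10 fragments. With fragments counted 1 time it was 1.13 at 100 to 500 kb and 1.09 at 0.5 to 1.5 Mb downstream. The ES side ratio at 20 to 100 kb was 1.05 with fragments counted 1 time. The cause was not tested, except that the ES list is longer. Little can be said of single fragments beyond 5 Mb, where 1.05% of fragments had a read in DP and 2.10% in ES.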
